A study of Homo sapiens with 8 samples.

Results

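The 6 mRNA libraries of HGC27 cells that overexpressed a mutant p53 were compared with the 2 libraries of the same cells that overexpressed GFP. HGC27, an established cell line, comes from a human gastric carcinoma. The labels record the cells as having no p53 of their own, so this absence is shared by all 4 groups. The mutants were R175H, R248Q and R273H, with 2 libraries each, and the GFP group carries the entry null where the others name a mutant. All cells were grown in alpha-MEM. How the proteins were introduced, and whether a group was a pool or 1 clone of cells, is not given in the sources used here. Genes were chosen by position: all 6 mutant libraries had to lie on the same side of both GFP libraries in CPM, the counts of a gene per library total after TMM scaling. Of 13213 genes tested, 1132 were higher in all 6 mutant libraries (8.57%) and 1138 were lower in all 6 (8.61%).

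The p53 protein is a transcription factor that, in its normal form, switches on genes of cell cycle arrest, DNA repair and cell death. Missense substitutions in its DNA-binding domain are common in tumours. R175H is a structural mutant, in which the domain folds poorly. R248Q and R273H are contact mutants, which have lost an arginine that meets the DNA. Mutant proteins of both kinds have been described to act on transcription through other factors, among them SREBP2 at genes of sterol synthesis, NRF2 at antioxidant genes and ETS2 at genes of histone methyltransferases.

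Library totals ran from 6800463 to 11788035 counts. At these depths 3 counts, taken as the floor of detection, correspond to at most 0.441 CPM. GFP replicate 1 stood apart: over 965 well-counted genes with a transcript of 8000 nt or more, its median deviation from the mean of all libraries was -0.27 (log2), against -0.03 in GFP replicate 2 and -0.03 to 0.14 in the mutants. Values without it are therefore given for a part of the genes and lists. Where none is given, a change can still depend on it. Among 23 markers of gastric epithelium, 6 had no count in any library (GKN1, GKN2, KRT20, PGC, TFF1 and TFF2). Of the rest, CDX2, GATA4, GATA6, KRT8 and MUC1 had a mean of at least 1 CPM. The summed level of these markers was 73.5 to 83.1 CPM in GFP and 78.3 to 88.1 in the mutants. Blood cell markers summed to 13.5 to 18.2 CPM in GFP and 13.9 to 17.1 in the mutants, with CD3E and HBB among those at 0 in every library. Endothelial markers summed to 4.32 to 5.04 and 3.48 to 4.72 CPM, with CDH5 and KDR at 0.

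The difference of the mean of the 3 mutants from GFP was tested by quasi-likelihood in edgeR, and p-values were adjusted over all genes (Benjamini-Hochberg, threshold 0.05). This test called 689 genes higher (5.21% of those tested) and 402 lower (3.04%). Of these, 497 and 344 also had no overlap between the 6 mutant and the 2 GFP libraries, while 192 and 58 were called although the libraries overlapped. Because separation and test use the same values, the separation adds no independent support to the call. Most changes were small: the median log2 fold change of genes both called and separated was 0.38 for higher and -0.27 for lower genes, and 14 higher and 12 lower called genes reached 2-fold. Separation was often narrow. The nearest mutant library lay at least 1.2-fold from the nearest GFP library in 86 of the 1132 higher and 55 of the 1138 lower genes. DMXL1 lay just inside the rule for higher genes, with 27.07 CPM in the nearest mutant and 27.06 in the nearest GFP library, and MDC1 just outside, with 123.97 and 123.98. For lower genes ANP32E lay just inside (234.2 and 234.4 CPM) and LY6E just outside (193.87 and 193.84).

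The labels do not say whether the 2 libraries of a group came from separate cultures, so the p-values measure the spread between these libraries, which may be technical. All comparisons rest on the same 2 GFP libraries, so an effect of mutant p53 and a peculiarity of the GFP cells cannot be told apart. Taken gene by gene, the p-value of an exact two-sided rank-sum test of 6 against 2 libraries cannot go below 0.0714. Without GFP replicate 1, 253 of the 497 and 132 of the 344 genes were still called in the same direction. When the 6 mutant libraries were treated as 1 arm, so that differences between mutants entered the spread, 52 genes were called higher and 14 lower, and the libraries of all 66 were separated. Of these, 48 higher and 14 lower genes were called under each of the alternative settings in which they were tested (up to 18), and they are described first.

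Genes higher in all mutants and called in every setting included transporters of amino acids. SLC7A11, the cystine importer that supplies glutathione synthesis, had 69 and 78.1 with GFP, 124 and 123 with R175H, 129 and 120.4 with R248Q and 107 and 104 with R273H CPM. Every mutant library was above both GFP libraries, and a difference among the mutants did not pass the test (adjusted p = 0.059). The log2 fold change was 0.68 ± 0.06 (SE, n = 6 and 2, edgeR adjusted p = 1.3e-05), and 0.59 without GFP replicate 1. SLC7A1, a carrier of cationic amino acids, rose by 0.42 ± 0.07 (0.25 without GFP replicate 1). ALDH1L2, a mitochondrial enzyme of folate metabolism, rose by 0.51 ± 0.07 (log2, SE), and by 0.36 without GFP replicate 1. The last pair and SLC7A11 belong to the list of ATF4 response genes. FASN, the fatty acid synthase, was measured at 1120.0 and 1416 with GFP, 1782 and 1678 with R175H, 1804 and 1790.0 with R248Q and 1646 and 1582 with R273H CPM. All mutant libraries were above the higher GFP library. The log2 fold change was 0.43 ± 0.07, and 0.27 without GFP replicate 1. MTR, the methionine synthase, rose by 0.47 ± 0.06, and by 0.37 without GFP replicate 1.

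Several receptors and guidance genes were in the same group. LRP1, an endocytic receptor of the LDL receptor family, was found at 71.4 and 99.2 with GFP, 144 and 135 with R175H, 212 and 195 with R248Q and 151 and 134 with R273H CPM. R248Q was highest, and the fold change of 0.90 ± 0.09 differed between mutants (adjusted p = 0.0036). IGF1R, the receptor for insulin-like growth factors, had 27.7 and 34.3 with GFP, 48.5 and 44.2 with R175H, 46.5 and 51.8 with R248Q and 45.2 and 44.4 with R273H CPM and rose by 0.60 ± 0.09 (edgeR adjusted p = 0.00058). SLIT2, a secreted guidance ligand, rose by 0.54 ± 0.08, CELSR1, an atypical cadherin of planar cell polarity, by 0.57 ± 0.09, and the integrin ITGA4 by 0.31 ± 0.05. The secreted integrin ligand NPNT reached 0.43 ± 0.06 and the latent TGF-beta binding protein LTBP4 0.33 ± 0.05. These last 3 had transcripts shorter than 8000 nt (4189, 4598 and 5032 nt). Without GFP replicate 1 the changes were 0.68 in LRP1, 0.45 in IGF1R, 0.47 in SLIT2 and 0.38 in CELSR1. Those of ITGA4, NPNT and LTBP4 were 0.25, 0.37 and 0.27. SOX6, a transcription factor, rose by 0.51 ± 0.08 and had 21.5 and 20.8 with GFP, 31 and 28.9 with R175H, 32.7 and 33.9 with R248Q and 27.7 and 27.2 with R273H CPM.

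ANK2, an ankyrin that ties membrane proteins to the spectrin cytoskeleton, had 14.4 and 17.4 with GFP, 31 and 29 with R175H, 26.7 and 25.8 with R248Q and 27.5 and 27.1 with R273H CPM. All mutants were above GFP, with log2 fold changes of 0.92 in R175H, 0.73 in R248Q and 0.78 with R273H and no difference among them that passed the test (adjusted p = 0.48). The mean difference was 0.81 ± 0.09 (edgeR adjusted p = 0.0001), and 0.67 without GFP replicate 1. AHNAK2, a giant scaffold protein, had 30.3 and 48.1 with GFP, 76.3 and 77.3 with R175H, 93.1 and 90.4 with R248Q and 66.1 and 63.9 with R273H CPM and a log2 fold change of 0.98 ± 0.11. The GFP libraries of this gene differed from each other, and without GFP replicate 1 the change was 0.68. ANKRD33B, an ankyrin repeat protein, was at 8.53 and 11.3 with GFP, 18 and 18.1 with R175H, 19 and 22.2 with R248Q and 18.8 and 17.6 with R273H CPM. Its nearest mutant library lay 0.64 (log2) above the nearest GFP library, the widest gap among the 48 genes apart from SLAIN1. SLAIN1, a microtubule-associated protein, rose from few counts: 26 and 18 with GFP, 49 and 61 with R175H, 59 and 62 with R248Q and 53 and 52 with R273H counts, or 1.22 ± 0.20 on the log2 scale. Of the 48 higher genes called in every setting, 34 had transcripts of 8000 nt or more, against 8.96% of all tested genes of known length. The 14 lower genes held 0 such transcripts.

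**Figure D1:**
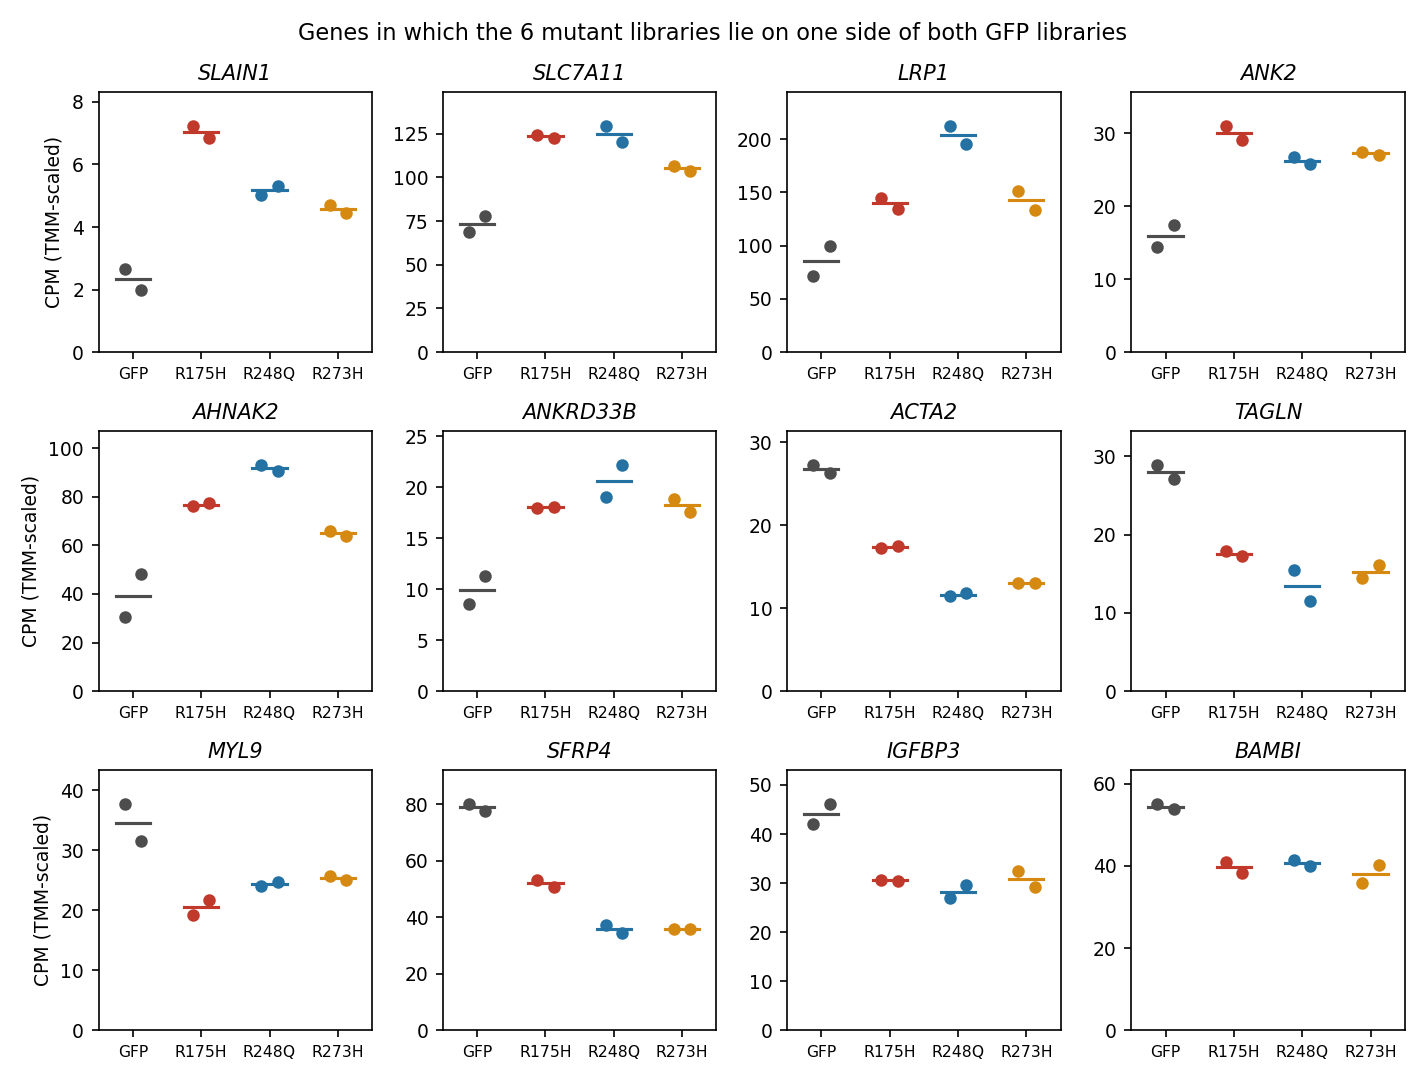
Level of 12 genes in the 8 libraries (vertical axes, TMM-scaled CPM, each from 0; horizontal axes, the 4 groups; points, single libraries; lines, group means of 2 libraries). In SLAIN1, SLC7A11, LRP1, ANK2, AHNAK2 and ANKRD33B every mutant library lies above both GFP libraries. In ACTA2, TAGLN, MYL9, SFRP4, IGFBP3 and BAMBI every mutant library lies below both, as with ACTA2 at 27.2 and 26.3 CPM in GFP and 11.4 to 17.5 in the mutants.

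Genes lower in all mutants and called in every setting were led by SFRP4 and by genes of the contractile apparatus. SFRP4, a secreted antagonist of Wnt ligands, had 80.1 and 77.7 with GFP, 53.1 and 50.8 with R175H, 37.1 and 34.4 with R248Q and 35.7 and 35.7 with R273H CPM. The GFP pair was tight and R175H lay between GFP and the other mutants. The log2 fold change was -0.96 ± 0.06 (SE, n = 6 and 2, edgeR adjusted p = 2.9e-07), and the mutants differed among themselves (adjusted p = 0.00052), with -0.61 in R175H, -1.14 in R248Q and -1.15 with R273H. ACTA2, smooth muscle actin, had 27.2 and 26.3 with GFP, 17.3 and 17.5 with R175H, 11.4 and 11.8 with R248Q and 13 and 13.1 with R273H CPM and fell by 0.95 (log2, adjusted p = 1.3e-05). TAGLN, an actin-binding protein of smooth muscle and myofibroblasts, was measured at 28.9 and 27.1 with GFP, 17.9 and 17.3 with R175H, 15.4 and 11.5 with R248Q and 14.4 and 16.1 with R273H CPM. It changed by -0.87 ± 0.10. MYL9, a regulatory light chain of myosin, had 37.7 and 31.5 with GFP, 19.2 and 21.8 with R175H, 24 and 24.7 with R248Q and 25.7 and 25 with R273H CPM, a change of -0.57 ± 0.08. Every mutant library lay below both GFP libraries in each of these 3 genes. Without GFP replicate 1 the changes were -0.93 in ACTA2, -0.82 in TAGLN and -0.43 in MYL9.

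In a list of 27 tested contractile genes and targets of serum response factor, the factor that binds the CArG box, 6 were lower and 0 higher. Among all tested genes 3.04% were lower and 5.21% higher. The list's median log2 fold change was -0.10, against 0.00 for all tested genes. At an unadjusted p below 0.05 edgeR had 10 lower and 2 higher. DESeq2 called 3 lower and 0 higher, and limma-voom 5 lower and 1 higher. Leaving out GFP replicate 1 left 4 lower, and with the mutants as 1 arm 3 were: ACTA2, TAGLN and MYL9. The other 3 called members were TPM1 (-0.23) and TPM2 (-0.24), which are tropomyosins, and ACTG2 (-1.53), a smooth muscle actin. Each of those 3 calls was lost without any 1 library other than GFP replicate 2, with values of -0.25 to -0.17 for TPM1, -0.27 to -0.07 for TPM2 and -1.83 to -1.34 for ACTG2. ACTG2 had 12 and 10 with GFP, 3 and 8 with R175H, 3 and 1 with R248Q and 4 and 8 with R273H counts. In bulk libraries, fewer cells of a kind and less RNA per cell cannot be told apart. Among 13 markers of smooth muscle and fibroblasts, which include ACTA2 and TAGLN, 12 had a mean of at least 1 CPM and none was at 0 in every library. Their summed level was 3120 to 3381 CPM in GFP and 3210 to 3450 in the mutants. Their part in these changes was not tested.

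Among promoters taken from RefSeq (GRCh38.p14, 250 bases up to the transcription start), 8 of 24 from this list held a CArG box, against 0.972% of 10499 promoters of tested genes. Of these 8, CNN2, EGR1, FHL2, FLNA, MYLK, SRF and TPM4 were not called (edgeR adjusted p = 0.053 to 0.59). ACTG2 held 2, shown here in capitals, and was chosen after the values were seen because it was the only called member with a match. It spans chr2:73892758-73893007 on the plus strand and is written 5′ to 3′ toward the start.
ACTG2: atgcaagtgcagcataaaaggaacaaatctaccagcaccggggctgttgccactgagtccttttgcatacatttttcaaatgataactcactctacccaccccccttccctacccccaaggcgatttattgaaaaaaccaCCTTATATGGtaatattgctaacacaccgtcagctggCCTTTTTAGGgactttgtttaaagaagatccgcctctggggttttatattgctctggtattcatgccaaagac
The first box lies 110 and the second 73 bases before the start. The windows of the called members ACTA2, TPM1 and TPM2 held none, and no promoter was given for TAGLN and MYL9. Other transcription starts of a gene were not searched, here or for the lists below. A match near such a start, as for ACTA2, would be missed.

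Among the other lower genes called in every setting, 3 act in growth factor signalling. IGFBP3, a secreted carrier of insulin-like growth factors, had 42 and 46.1 with GFP, 30.7 and 30.5 with R175H, 26.9 and 29.6 with R248Q and 32.4 and 29.1 with R273H CPM, with all mutants close together. Its change was -0.56 ± 0.07 (adjusted p = 0.00028), and -0.63 without GFP replicate 1. BAMBI, a decoy receptor that dampens BMP and TGF-beta signals, was at 55.1 and 53.8 with GFP, 41 and 38.4 with R175H, 41.5 and 39.9 with R248Q and 35.8 and 40.2 with R273H CPM (-0.47 ± 0.07). MSX2, a homeobox gene induced by BMP, was at 180.3 and 178 with GFP, 119 and 126 with R175H, 143 and 148 with R248Q and 137 and 139 with R273H CPM (-0.41 ± 0.05). The groups did not overlap in any of the 3 genes. In a list of 19 tested BMP and TGF-beta response genes 4 were lower and 1 higher (median -0.11), against 3.04% and 5.21% of all genes. BMP4 (-0.47) and ID1 (-0.21) were the other called lower members. BMP4 passed in only 1 of the fits that left out a library, that without R248Q replicate 1 (-0.54 to -0.40 in the others), and ID1 only in that without GFP replicate 2 (-0.22 to -0.08 in the others). LTBP1, which stores latent TGF-beta in the matrix, was the higher one, at 0.30 ± 0.05.

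IFITM2, an interferon-induced restriction factor of viral entry, had 94.4 and 86.6 with GFP, 58.4 and 61.4 with R175H, 67.7 and 65.1 with R248Q and 70.8 and 74 with R273H CPM and changed by -0.45 ± 0.06. Its neighbour in function IFITM3 was at 257 and 216 with GFP, 176 and 188 with R175H, 180.2 and 191 with R248Q and 192 and 215 with R273H CPM (-0.32 ± 0.06, and -0.18 without GFP replicate 1), and here GFP replicate 2 lay just above R273H replicate 2. IFITM2 and IFITM3 are similar in sequence, so reads may be split between them. Of 20 tested genes of the type I interferon response 4 were lower and 0 higher (median -0.09), against 3.04% and 5.21% of all genes. At an unadjusted p under 0.05 there were 6 lower and 0 higher, DESeq2 had 2 and 0, and limma-voom 4 and 0. ISG15 (-0.47) and IFI6 (-0.60) were the remaining pair. The ISG15 call was lost without any 1 of the 8 libraries (-0.53 to -0.42) and the IFI6 call without any 1 other than GFP replicate 2 (-0.68 to -0.27). HIGD1A, a mitochondrial protein induced by low oxygen, fell by 0.40, with 50.2 and 47.5 with GFP, 34.4 and 34.8 with R175H, 40.0 and 38.5 with R248Q and 36.5 and 38.8 with R273H CPM. DAAM2, a formin that acts in Wnt signalling, fell by 0.89, with 6.78 and 8.65 with GFP, 4.43 and 4.26 with R175H, 3.07 and 4.54 with R248Q and 4.89 and 3.76 with R273H CPM. TFEC, a transcription factor of the MITF family, was near the floor in all mutants, with 22 and 17 with GFP, 1 and 1 with R175H, 6 and 7 with R248Q and 3 and 1 with R273H counts. At so few counts in the mutants its log2 fold change of -3.09 ± 0.40 is imprecise.

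Further lower genes had few counts but separated libraries. CYP1A1, a detoxifying cytochrome induced by the aryl hydrocarbon receptor, had 31 and 27 with GFP, 2 and 14 with R175H, 14 and 8 with R248Q and 13 and 15 with R273H counts (-1.54 ± 0.32, SE, adjusted p = 0.0082). HSD17B2, which inactivates oestradiol, changed by -1.02 ± 0.19, S1PR1, a sphingosine 1-phosphate receptor, by -0.97 ± 0.20, and WNT4, a Wnt ligand, by -0.95 ± 0.20. The chemokine CCL2 was at 6.78 and 7.54 with GFP, 5.46 and 4.71 with R175H, 3.41 and 3.86 with R248Q and 2.22 and 3.59 with R273H CPM (-0.92 ± 0.18). TOX3, a chromatin protein, was at 2.78 and 3.99 with GFP, 1.62 and 2.69 with R175H, 0.682 and 0.685 with R248Q and 1.33 and 0.768 with R273H CPM (-1.52 ± 0.28). The calls of these 6 genes were kept without any 1 library and were lost with the mutants as 1 arm (adjusted p = 0.054, 0.062, 0.091, 0.13, 0.076 and 0.1).

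A large group of genes higher in the mutants belonged to the response to amino acid shortage. ATF4 is the transcription factor of this response, and it acts with C/EBP partners on a composite DNA element (CARE) in genes of amino acid synthesis and import. Of 41 tested members 24 were higher and 0 lower, against 5.21% and 3.04% of all tested genes. The median log2 fold change over members was 0.25. No member was lower at an unadjusted p below 0.05, by DESeq2 or by limma-voom. All 6 mutant libraries were above both GFP libraries in 23 of the 41 (8.57% of all genes were). The number called higher was 30 without GFP replicate 1. The median over members, relative to the GFP mean of each gene, was 0.48 in each R175H library, 0.09 and 0.10 with R248Q and 0.23 in each R273H library (log2 CPM + 0.5). Against GFP, 33 members were higher in R175H (6.39% of all genes were), 7 in R248Q (4.88%) and 13 in R273H (0.757%). The mutants differed among themselves in 23 members (5.47% of all genes). With the mutants as 1 arm 3 members were called: SLC7A11, SLC7A1 and ALDH1L2.

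Promoters of 32 members were in the RefSeq table, and 4 of them (12.5%) held TGATGNAA on either strand within 250 bases of the start, against 1.37% of tested genes. A match is a description of letters and was not tested as a site. Both called members with a match are shown, chosen after the values were seen, with the element in capitals. The ASNS window is chr7:97872409-97872658 on the minus strand and the CHAC1 window chr15:40953221-40953470 on the plus strand (GRCh38.p14), each written 5′ to 3′ toward the start.
ASNS: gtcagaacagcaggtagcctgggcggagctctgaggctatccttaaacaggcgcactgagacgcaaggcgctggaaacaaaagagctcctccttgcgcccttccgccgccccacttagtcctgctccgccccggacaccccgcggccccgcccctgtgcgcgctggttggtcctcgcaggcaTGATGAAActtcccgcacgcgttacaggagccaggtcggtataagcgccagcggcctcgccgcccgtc
CHAC1: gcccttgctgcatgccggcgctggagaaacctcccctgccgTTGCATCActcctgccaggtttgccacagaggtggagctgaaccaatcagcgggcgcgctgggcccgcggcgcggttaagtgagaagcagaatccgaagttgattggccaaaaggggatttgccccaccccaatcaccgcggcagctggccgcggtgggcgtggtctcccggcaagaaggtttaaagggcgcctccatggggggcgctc
The match lies 68 bases before the start in ASNS and 209 in CHAC1.

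ASNS, the asparagine synthetase, had 264 and 229 with GFP, 381 and 388 with R175H, 271 and 272 with R248Q and 298 and 308 with R273H CPM. R175H was far above the others, R273H followed, and R248Q exceeded the higher GFP library by a small margin. Its mean change was 0.36 ± 0.05 (adjusted p = 0.00063), and 0.46 without GFP replicate 1. CHAC1, which degrades glutathione, had 29.1 and 29.8 with GFP, 52.4 and 48.9 with R175H, 33.3 and 32.6 with R248Q and 42.2 and 42.4 with R273H CPM, with changes of 0.78 in R175H, 0.16 in R248Q and 0.52 with R273H. GPT2, a transaminase that makes alanine, was at 158 and 153 with GFP, 243 and 235 with R175H, 182 and 188 with R248Q and 202 and 209 with R273H CPM (0.42 ± 0.05). The order R175H, R273H, R248Q held for each of these 3 genes. PCK2, a mitochondrial enzyme that makes phosphoenolpyruvate, rose by 0.46 ± 0.06, and CTH, which makes cysteine, by 0.52 ± 0.08. SESN2, a stress-induced brake on mTORC1, rose by 0.48 ± 0.08. Enzymes of serine synthesis and its mitochondrial branch also rose: PSAT1 by 0.26 ± 0.04, SHMT2 by 0.24 ± 0.04 and MTHFD2 by 0.23 ± 0.05. DDIT4, another inhibitor of mTORC1, had 505 and 513 with GFP, 1383 and 1392 with R175H, 576 and 588 with R248Q and 641 and 678 with R273H CPM. All libraries were above GFP, but the mean of 0.67 ± 0.04 hid a spread between mutants of 1.45 in R175H, 0.19 in R248Q and 0.37 with R273H.

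The calls of SLC7A11, SLC7A1 and ALDH1L2 apart, those of the ATF4 genes named here were lost with the mutants as 1 arm and in no other setting. The pseudokinase TRIB3 was called (0.37 ± 0.06) but did not meet the rule, with 67 and 69.6 with GFP, 116 and 117 with R175H, 68.3 and 69.1 with R248Q and 81.7 and 88.9 with R273H CPM. Both R248Q libraries lay between the GFP libraries. Cytosolic aminoacyl-tRNA synthetases, which load tRNAs and are partly under ATF4, had 6 of 20 higher (5.21% of all genes) and 0 lower (median 0.10). At an unadjusted p below 0.05 there were 10 higher and 3 lower, while DESeq2 called 5 and 0 and limma-voom 6 and 0. EPRS had 489.8 and 549.7 with GFP, 630.2 and 626 with R175H, 591 and 594 with R248Q and 596 and 585 with R273H CPM (0.22 ± 0.05, and 0.13 without GFP replicate 1) and IARS 681 and 721 with GFP, 806 and 811 with R175H, 827 and 794 with R248Q and 814 and 786 with R273H (0.20 ± 0.04). The IARS call was lost without R248Q replicate 1 (0.19).

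**Figure D2:**
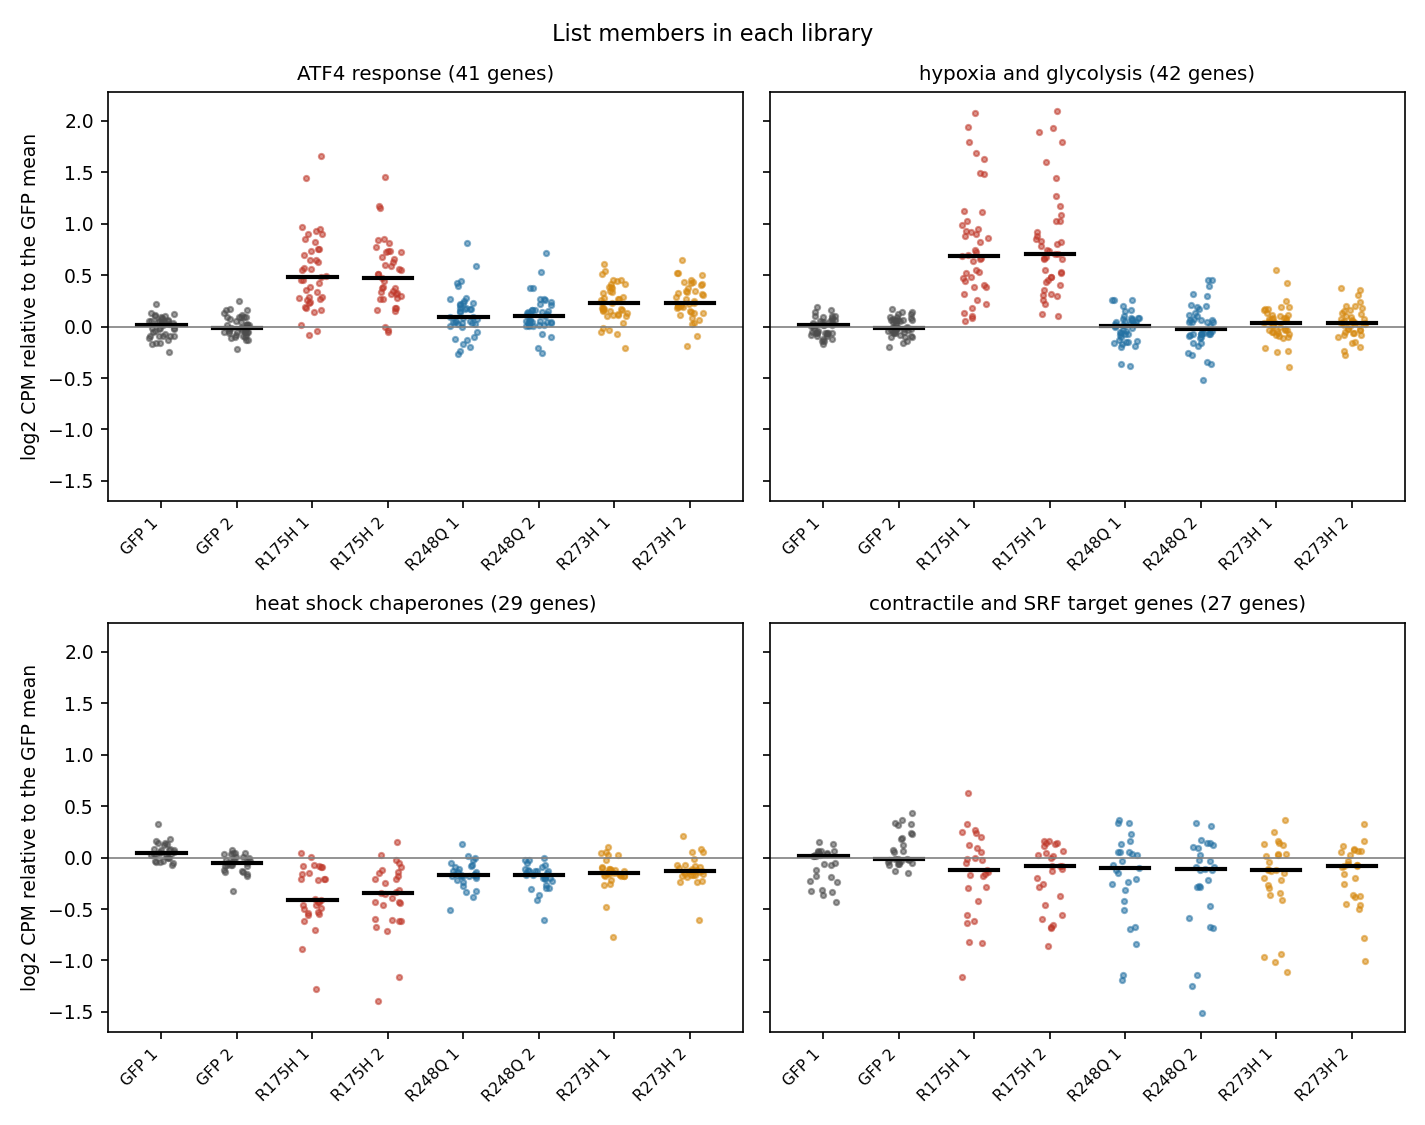
Level of the members of 4 gene lists in each of the 8 libraries (vertical axis, log2 of CPM + 0.5 relative to the mean of the 2 GFP libraries; points, genes, spread sideways at random; black bars, list medians). The ATF4 median lies at 0.48 in R175H, about 0.10 in R248Q and 0.23 in R273H, whereas the hypoxia median lies at 0.69 and 0.71 in R175H and between -0.02 and 0.04 in the other 4 mutant libraries.

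Genes induced by low oxygen gave a called mean without a shared change. Of 42 tested members of a hypoxia and glycolysis list 27 were higher and 0 lower in the mean of the mutants (median 0.27; at an unadjusted p below 0.05, 28 and 1; DESeq2 21 and 0; limma-voom 27 and 0). All 6 mutant libraries were above both GFP libraries in 7 of them (8.57% of all genes were), and the mutants differed in 39 (5.47% of all genes). Against GFP, R175H had 37 members higher (6.39% of all genes were). R248Q had 1 higher and 2 lower (4.88% and 1.44% of all genes), and R273H 0 in each direction (0.757% and 0.25%). NDRG1, a hypoxia-induced gene of growth control, met the rule with 9.77 and 10.6 with GFP, 44.6 and 45.3 with R175H, 12.3 and 14.1 with R248Q and 11.6 and 13.1 with R273H CPM. The R248Q and R273H libraries were just above GFP and the R175H libraries were far above. PFKFB4, which regulates glycolysis, behaved alike, with changes of 1.65 in R175H, 0.37 in R248Q and 0.45 with R273H. HK2, a hexokinase, had 115 and 131 with GFP, 217 and 219 with R175H, 147 and 141 with R248Q and 140.2 and 141 with R273H CPM and PLOD2, which hydroxylates collagen, 71.4 and 69.9 with GFP, 119 and 116 with R175H, 79 and 77.6 with R248Q and 80.6 and 74.5 with R273H CPM. CA9, a carbonic anhydrase on the cell surface, was called (0.51 ± 0.12) although its R248Q and R273H libraries overlapped with GFP (13.1 and 11.2 with GFP, 40.0 and 46.3 with R175H, 11.5 and 11.3 with R248Q and 9.07 and 11.9 with R273H CPM). That call was lost without R248Q replicate 1 (0.51) or R273H replicate 2 (0.44). Of 38 promoters of this list 21 (55.3%) held the core ACGTG within 250 bases, against 23.5% of all.

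TXNIP, which restrains glucose uptake, went the other way, with 32.6 and 30.6 with GFP, 6.20 and 6.95 with R175H, 21.5 and 21.4 with R248Q and 22.8 and 20.1 with R273H CPM. R248Q and R273H lay below GFP by about the same amount and R175H lay much lower (-2.25 in R175H, -0.56 in R248Q and -0.56 with R273H). The difference among mutants passed the test (adjusted p = 1.5e-06).

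Sterol synthesis genes, which SREBP2 controls, had 10 of 26 members higher and 0 lower (median 0.16), and none was lower at an unadjusted p below 0.05, by DESeq2 or by limma-voom. The libraries were separated upward in 8 (8.57% of all genes were). The shares called over all tested genes were 5.21% higher and 3.04% lower. SQLE, the squalene epoxidase, had 1121 and 1115 with GFP, 1483 and 1523 with R175H, 1261 and 1265 with R248Q and 1281 and 1287 with R273H CPM and rose by 0.27 ± 0.04 (adjusted p = 0.0006). HMGCS1, the first committed enzyme of the mevalonate pathway, was at 249.5 and 251 with GFP, 364 and 358 with R175H, 284 and 292 with R248Q and 278 and 277 with R273H CPM (0.29 ± 0.04). Both were raised in every mutant library, most in R175H. INSIG1, a feedback inhibitor of the pathway, rose by 0.30 ± 0.04, DHCR7, a reductase of the last step to cholesterol, by 0.27 ± 0.05, and the factor's own gene SREBF2 by 0.26 ± 0.05. All of these calls were lost with the mutants as 1 arm. The number called higher was also 10 without GFP replicate 1.

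Chaperone genes formed the main group of lower genes among the lists. Heat shock proteins keep other proteins folded, and the factor HSF1 drives their genes through heat shock elements. Of 29 tested genes 17 were lower and 0 higher in the mean of the mutants (median -0.22), and none was higher at an unadjusted p below 0.05, by DESeq2 or by limma-voom. Among all tested genes 3.04% were lower and 5.21% higher. The libraries of 18 members were separated downward, against 8.61% of all genes. Per library the median relative to GFP was -0.41 and -0.34 with R175H, -0.17 in each R248Q library and -0.15 and -0.13 with R273H (log2). Against GFP, 18 members were lower in R175H (4.59% of all genes were), 7 in R248Q (1.44%) and 1 in R273H (0.25%). Without GFP replicate 1, 11 were lower in the mean, with a median of -0.17, and with the mutants as 1 arm 0 were.

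HSPA8, the constitutive HSP70, was the most significant member, and its RefSeq promoter held 2 matches to TTCNNGAA, in capitals here. The window is chr11:123062137-123062386 on the minus strand (GRCh38.p14), written 5′ to 3′ toward the start.
HSPA8: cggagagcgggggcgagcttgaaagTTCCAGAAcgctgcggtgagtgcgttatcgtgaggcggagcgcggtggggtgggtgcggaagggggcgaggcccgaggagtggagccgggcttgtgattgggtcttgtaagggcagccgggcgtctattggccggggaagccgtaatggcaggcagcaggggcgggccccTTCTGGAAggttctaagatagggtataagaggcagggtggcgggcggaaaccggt
The matches lie 225 and 55 bases before the start. Of 26 promoters of this list 3 (11.5%) held the motif, against 5.16% of all, the others being DNAJB6 and CHORDC1. DNAJB6 was called lower (-0.24), a call lost without R175H replicate 1, either R248Q library or R273H replicate 1 (-0.25 to -0.21). CHORDC1, with 3 matches, was called lower with overlapping libraries (edgeR adjusted p = 0.022). HSPA8 had 2688 and 2603 with GFP, 1724 and 1739 with R175H, 2355 and 2302 with R248Q and 2328 and 2368 with R273H CPM. Pseudogenes of HSPA8 could take a share of its reads. R175H was lowest, and the R248Q and R273H libraries formed a close set between R175H and GFP. Its change was -0.32 ± 0.04 (adjusted p = 0.00011), and -0.30 without GFP replicate 1. DNAJA1, a J-domain partner of HSP70, had 324 and 303 with GFP, 193 and 204 with R175H, 273.3 and 274 with R248Q and 269 and 265 with R273H CPM (-0.36 ± 0.05). AHSA1, which stimulates the HSP90 ATPase, was at 289 and 258 with GFP, 195 and 198 with R175H, 225 and 223 with R248Q and 229 and 239.6 with R273H CPM (-0.33 ± 0.05). CRYAB, a small heat shock protein, had 15.6 and 16.6 with GFP, 6.34 and 6.95 with R175H, 11.2 and 12.4 with R248Q and 9.25 and 10.4 with R273H CPM, the largest fall of the list at -0.81 ± 0.11. HSPH1 (-0.32 ± 0.05), HSP90AA1 (-0.25 ± 0.04) and DNAJB1 (-0.28 ± 0.05) fell as well. These 7 calls held in every setting except that with the mutants as 1 arm.

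In the endoplasmic reticulum, 8 of 26 chaperone and unfolded protein response genes were lower and 0 higher (median -0.08; at an unadjusted p below 0.05, 12 and 1; DESeq2 6 and 0; limma-voom 8 and 0). HSPA5, the resident HSP70 also called BiP, had 653 and 634 with GFP, 447 and 443 with R175H, 567 and 556 with R248Q and 572 and 569.7 with R273H CPM (-0.30 ± 0.04). MANF, a secreted stress protein, was at 67.2 and 62.9 with GFP, 41 and 41.6 with R175H, 49.3 and 51.4 with R248Q and 53.6 and 56.2 with R273H CPM (-0.42 ± 0.06). CALR, a calcium-binding chaperone, fell by 0.21 and HSP90B1, the resident HSP90, by 0.25. All 4 had separated libraries and differed among the mutants, with R175H lowest. The CCT chaperonin and prefoldin, which fold actin and tubulin, had 4 of 14 subunits lower and 0 higher (median -0.14), with 1 lower without GFP replicate 1 and 12 without GFP replicate 2. Proteasome subunits had 9 of 31 lower and 0 higher (median -0.14), with 0 lower without GFP replicate 1 (median -0.07) and 27 without GFP replicate 2. Neither list had a higher member at an unadjusted p below 0.05, by DESeq2 or by limma-voom. Over all tested genes edgeR called 3.04% lower and 5.21% higher.

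**Figure D3:**
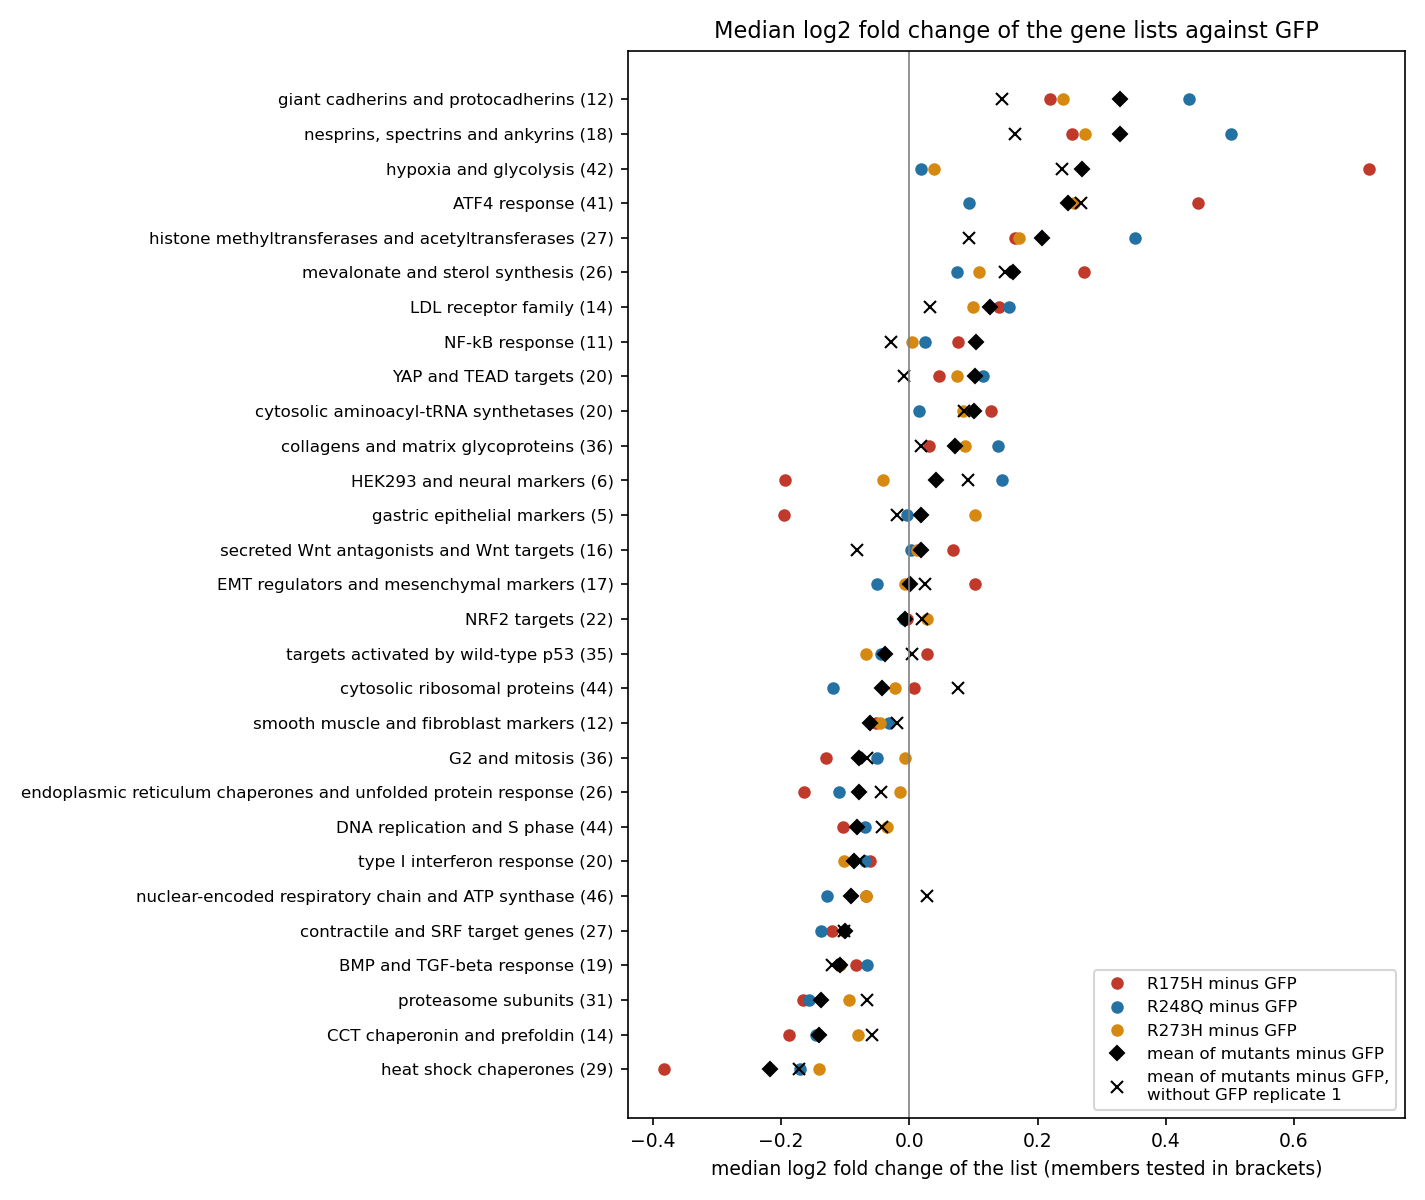
Median log2 fold change against GFP of each gene list with at least 5 tested members (horizontal axis; the number tested stands in brackets), for each mutant, for the mean of the mutants and for that mean without GFP replicate 1. ATF4 genes lie at 0.45, 0.09 and 0.26 in R175H, R248Q and R273H, heat shock genes at -0.38, -0.17 and -0.14, and the proteasome median moves from -0.14 to -0.07 without GFP replicate 1.

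Genes with very long transcripts were frequent among those higher in the mutants. The median transcript length was 7582 nt for genes called higher, 2651 nt for genes called lower and 3664 nt for all tested genes. Of the genes called higher with a known length 46.8% had a transcript of 8000 nt or more, against 8.96% of all. The fold change rose with length over the whole table, from a median of -0.11 in genes under 1000 nt to 0.29 in those of 12000 nt or more. The 2 medians were 0.01 and 0.14 without GFP replicate 1. Of the 497 higher and 344 lower genes that were called and separated, 375 and 293 were called in the same direction with the length trend removed from each library, and 210 and 158 with that and without GFP replicate 1.

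**Figure D4:**
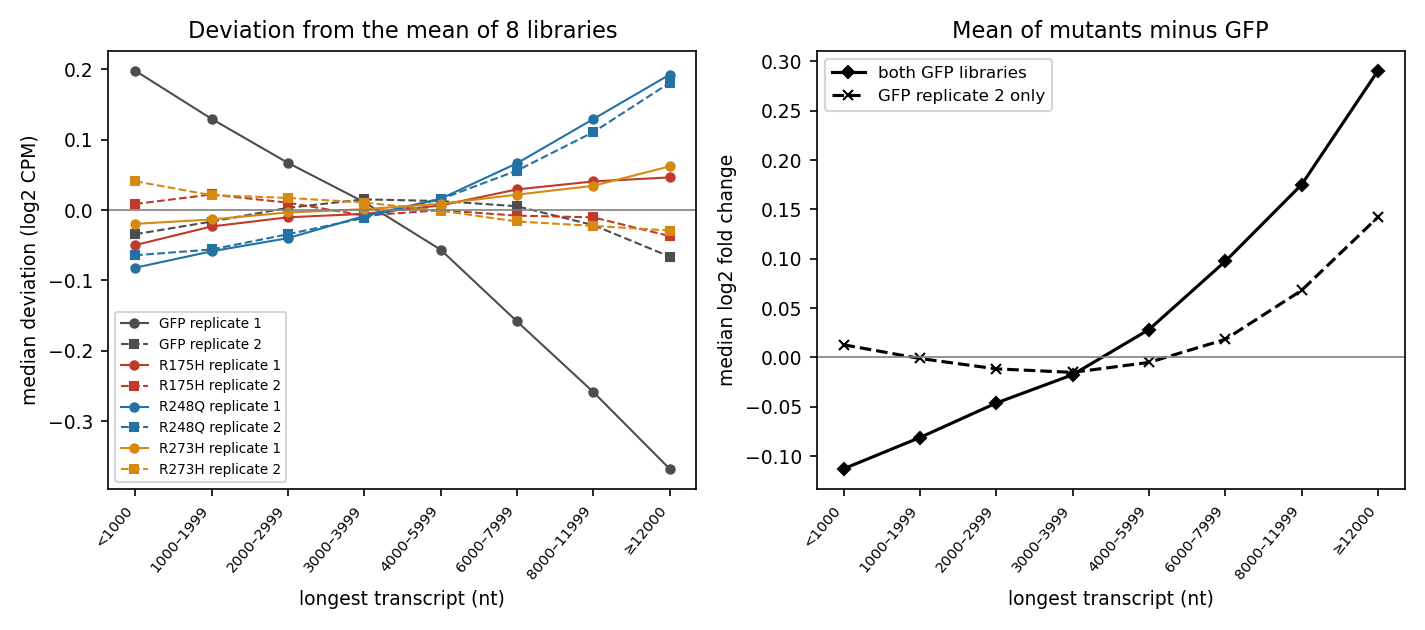
Left, median deviation of each library from the mean of the 8 libraries (log2 CPM) by length of the longest transcript. Right, median log2 fold change of the mean of mutants against both GFP libraries and against GFP replicate 2 alone. GFP replicate 1 runs from 0.20 in the shortest to -0.37 in the longest transcripts, and the R248Q libraries run the other way, to 0.19 and 0.18.

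Giant proteins of the cytoskeleton were among these genes. In a list of 18 nesprins, spectrins and ankyrins 10 were higher and 0 lower (median 0.33, and 0.17 without GFP replicate 1). For this list and the next, the shares over all tested genes were 5.21% higher and 3.04% lower. SYNE2, a nesprin that links the nucleus to actin (21842 nt), had 20.8 and 27.4 with GFP, 42.3 and 43.5 with R175H, 83.3 and 78 with R248Q and 43.8 and 36.9 with R273H CPM. R248Q was well above the other mutants, whose libraries were still above both GFP libraries. The change was 1.11 ± 0.10 (adjusted p = 1.3e-05) and 0.92 without GFP replicate 1. DST, a cytoskeletal linker, had 44.4 and 53.9 with GFP, 69.8 and 66.5 with R175H, 117 and 107 with R248Q and 76.6 and 70.4 with R273H CPM (0.75 ± 0.08) and MACF1, its relative, 0.60 ± 0.08. UTRN, a homologue of dystrophin (0.65 ± 0.09), and SPTBN1, a beta spectrin (0.54 ± 0.08), were called in every setting. Without GFP replicate 1 they were at 0.48 and 0.34, and with the length trend removed as well at 0.36 and 0.25. Giant cadherins and protocadherins had 6 of 12 higher and 0 lower (median 0.33). Without GFP replicate 1 there were 5 higher with a median of 0.14, and 0.09 with the length trend removed as well. With only that trend removed 5 were higher and 1 lower. FAT4, which signals in planar cell polarity, had 23.7 and 35.9 with GFP, 51.9 and 45.3 with R175H, 77.9 and 76.3 with R248Q and 56.8 and 45.5 with R273H CPM (0.95 ± 0.12), and 0.68 without GFP replicate 1. FAT1 (0.73 ± 0.11) and PCDH18 (0.36 ± 0.06) rose too, FAT1 at 0.46 without GFP replicate 1.

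Histone methyltransferases and acetyltransferases had 12 of 27 members higher and 0 lower (median 0.21), against 5.21% and 3.04% of all tested genes. Without GFP replicate 1 the median was 0.09 and 6 were higher, and 21 were without GFP replicate 2. For this list and the 2 before it, 0 members were lower at an unadjusted p below 0.05, by DESeq2 or by limma-voom. KMT2D, a methyltransferase of enhancers (19419 nt), had 77.4 and 113 with GFP, 139 and 125 with R175H, 225 and 233 with R248Q and 157 and 142 with R273H CPM (0.80 ± 0.10). KMT2A, also called MLL1, was at 47.3 and 75.8 with GFP, 99.2 and 89.8 with R175H, 146 and 142 with R248Q and 112 and 99.8 with R273H CPM (0.88 ± 0.12). In both genes GFP replicate 1 was lowest and R248Q highest. Against GFP replicate 2 alone the changes were 0.54 and 0.57. KMT2C (0.70 ± 0.09) and the acetyltransferase EP300 (0.67 ± 0.09) gave similar values, and CREBBP, its homologue, 0.44 ± 0.07. These 3 were at 0.47, 0.44 and 0.28 without GFP replicate 1. The calls of all 5 were lost with the mutants as 1 arm, and the part of transcript length in them was not tested beyond the alternatives above.

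Of 36 tested collagens and matrix glycoproteins 10 were higher and 1 lower, with 6 and 2 separated. Among all tested genes 5.21% and 3.04% were called, and 8.57% and 8.61% were separated. The list's median was 0.07, and 0.02 without GFP replicate 1. With the length trend removed 10 were higher and 3 lower (median 0.02). The laminin LAMA1 had 4.21 and 5.43 with GFP, 6.64 and 8.52 with R175H, 13 and 14 with R248Q and 10.4 and 9.31 with R273H CPM (1.07 ± 0.16). Another laminin chain, LAMA5, was at 265 and 342 with GFP, 409 and 361 with R175H, 564 and 559 with R248Q and 419 and 400.0 with R273H CPM (0.55 ± 0.07), and HSPG2, the basement membrane proteoglycan perlecan, rose by 0.67 ± 0.08. POSTN (0.25 ± 0.04) and COL1A1 (0.20 ± 0.04) were called with overlapping libraries, COL1A1 not without R248Q replicate 1 or 2 or R273H replicate 1 (0.20 each time). Mesenchymal markers and regulators of epithelial-mesenchymal transition had 3 of 17 higher and 3 lower (median 0.00), against 5.21% and 3.04% of all genes. THY1, a surface glycoprotein of mesenchymal cells, had 46.6 and 50.8 with GFP, 32.6 and 32.2 with R175H, 40.6 and 38.6 with R248Q and 44.4 and 43.5 with R273H CPM (-0.34 ± 0.07).

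Targets that wild-type p53 activates had no shared direction: 2 of 35 were higher, 1 was lower and the median was -0.04. Over all tested genes 5.21% were called higher and 3.04% lower, so these counts are near the general shares. The higher pair was SESN2 and the kinase PLK2 (0.19 ± 0.05, overlapping), and the lower one BAX (-0.23 ± 0.07), which passed in only 1 of the fits that left out a library, that without GFP replicate 2 (-0.25 to -0.11 in the others). The PLK2 call was lost without R175H replicate 1, either R248Q library or either R273H library (0.18 to 0.19). CDKN1A, the inhibitor p21, had 10.4 and 12.6 with GFP, 9.74 and 10.2 with R175H, 10.6 and 12.3 with R248Q and 11.1 and 12 with R273H CPM, with a difference of -0.06 ± 0.12 that did not pass (adjusted p = 0.8). MDM2, the ubiquitin ligase of p53, had 24 and 22.1 with GFP, 21 and 20.1 with R175H, 23.8 and 20.9 with R248Q and 22 and 19.9 with R273H CPM (-0.12 ± 0.09, adjusted p = 0.46). In both genes the mutant and GFP libraries overlapped.

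Genes of G2 and mitosis had 5 of 36 lower and 2 higher (median -0.08). Those of DNA replication had 4 of 44 lower and 1 higher (median -0.08, and -0.04 without GFP replicate 1). The shares over all tested genes were 3.04% lower and 5.21% higher. CCNB1, the mitotic cyclin, had 378 and 366 with GFP, 304 and 305 with R175H, 321 and 312 with R248Q and 344 and 336 with R273H CPM (-0.22 ± 0.04). GINS3, a subunit of the replicative helicase, was at 41.7 and 42.4 with GFP, 30.4 and 29.7 with R175H, 36.7 and 30.6 with R248Q and 34.4 and 34 with R273H CPM (-0.37 ± 0.08). The fall in each was smallest in R273H, and its libraries were still below both GFP libraries. The 2 higher mitotic genes, MKI67 (12678 nt) and CENPF (10307 nt), overlapped with GFP. NRF2 targets had 2 of 22 higher, SLC7A11 and the glutathione conjugate exporter ABCC1 (0.27 ± 0.05), and 0 lower (at an unadjusted p below 0.05, 2 and 4; DESeq2 2 and 0; limma-voom 2 and 0).

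For cytosolic ribosomal proteins 0 of 44 were called in each direction by edgeR (0 higher and 1 lower at an unadjusted p below 0.05), DESeq2 and limma-voom, with 3 higher without GFP replicate 1 and 38 lower without GFP replicate 2. With the length trend removed 5 were higher and 3 lower, and with that and without GFP replicate 1 17 were higher and 0 lower. Respiratory chain and ATP synthase genes had 0 of 46 called by the same tools (0 higher and 15 lower at an unadjusted p below 0.05), and 1 higher without GFP replicate 1 and 34 lower without GFP replicate 2 (median -0.19). With the length trend removed 6 were lower and 0 higher. Of 5 tested gastric epithelial markers 0 were called by any of the 3 tools, with 1 higher and 0 lower at an unadjusted p below 0.05.

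The mutants did not contribute equally. Of 13213 genes, 723 (5.47%) differed among the 3 mutants by an edgeR test of equal mutant means. Of the genes called against GFP and separated, 114 of 497 higher and 70 of 344 lower ones did. Over these genes the median log2 fold change was 0.40 in R175H, 0.40 in R248Q and 0.30 in R273H for the higher genes, and -0.36, -0.24 and -0.20 for the lower genes. R273H lay nearest to GFP in 264 of the higher and 212 of the lower genes, and farthest in 19 and 25. R175H lay farthest in 244 of the lower genes, while R248Q lay farthest in 252 and R175H in 226 of the higher. These orders describe genes that were chosen on the same values and carry no test.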

How the data were processed

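The authors deposited 1 table of whole-number read counts for 8 mRNA libraries, which they had not normalized. Per the submitters' processing notes, bcl2fastq, STAR 2.5 and the hg19 build were used, and per the labels' protocols the libraries were made with a Kapa mRNA kit. How reads were assigned to genes, with which annotation and strand setting, is not given in the sources used here. Reads of overlapping or antisense genes cannot be told apart. Of 25435 gene symbols, 6937 were without any count.

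Counts were analysed with edgeR 4.0.16 in R 4.3.3. Genes were kept by filterByExpr (minimum count 10, minimum total 15), libraries were scaled by TMM, and the quasi-likelihood model had 1 mean for each of the 4 groups, which left 4 residual degrees of freedom. An SE is the size of the log2 fold change over the root of its F statistic. The spread behind them is pooled over all groups, and the common biological coefficient of variation was 4.51%. The chi-square per degree of freedom between replicates was 5.72 in GFP and 1.21 to 1.60 in the mutants, so the pooled spread is smaller than that of the GFP pair. Transcript lengths, from GENCODE 29, were matched by symbol for 97.2% of tested genes. The length trend was removed by a loess fit (span 0.3) in each library, entered as an offset. The procedure was tested on simulated data in which all groups had the same spread and no length trend was present. That test therefore does not cover the wider spread of the GFP pair.

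The members, the 31 gene lists and the tests were chosen with earlier results of these data known. Named genes were called, separated and at a mean of at least 1 CPM: the 15 largest changes each way, the 10 widest gaps each way, up to 4 members of each list, and the 10 largest changes each way that remained without GFP replicate 1 and the length trend. The genes called in every setting, members called with overlapping libraries and the promoters shown were added after their values were seen. Results for some genes are not reported here, and the labels were not checked against the expression of the introduced constructs. Alternatives were other scaling, other filters, DESeq2 1.42.0, limma-voom (limma 3.58.1), removal of the length trend, the mutants as 1 arm, a replicate block, leaving out each library, and an adjusted p below 0.01.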

Additional observations from a re-analysis of the deposited data

Results flagged for a closer look

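Of the genes named here, 57 differed among the 3 mutants by edgeR's test of equal mutant means (adjusted p below 0.05, 2 libraries per mutant), 56 of them among the 116 that were called against GFP. Each value below is the distance between the highest and the lowest mutant mean on the log2 scale. The sorting by the mutant that stands farthest from the other pair is a description, and no explanation was tested.

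R175H stood above the other mutants in hypoxia genes: CA9 (2.05), NDRG1 (1.86), PFKFB4 (1.28), HK2 (0.63) and PLOD2 (0.60). The same held for ATF4 genes: DDIT4 (1.25), TRIB3 (0.76), CTH (0.65), PCK2 (0.55), ASNS (0.50), SHMT2 (0.45), GPT2 (0.37) and MTHFD2 (0.32). It also held for the sterol genes INSIG1 (0.54), HMGCS1 (0.38) and SQLE (0.25) and for PLK2 (0.52). In SFRP4 (0.54) and ACTA2 (0.58) R175H was above the others and below GFP.

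R175H stood below the other mutants in TXNIP (1.69), in the chaperones CRYAB (0.82), CHORDC1 (0.48), HSPH1 (0.47), DNAJA1 (0.46), HSPA8 (0.44), MANF (0.41), DNAJB1 (0.37), HSPA5 (0.36), HSP90B1 (0.28), HSP90AA1 (0.28) and CALR (0.23), in the matrix genes POSTN (0.51) and COL1A1 (0.49), and in THY1 (0.44), MSX2 (0.25) and TUBB3 (0.24). KRT8 had the widest distance (2.97), from few counts.

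R248Q stood above the other mutants in genes with long transcripts: SYNE2 (1.00), LAMA1 (0.81), KMT2D (0.80), FAT1 (0.76), DST (0.72), HSPG2 (0.71), FAT4 (0.67), MACF1 (0.67), MKI67 (0.63), KMT2A (0.61), LAMA5 (0.55), LRP1 (0.55), AHNAK2 (0.50), CENPF (0.48), KMT2C (0.47), EP300 (0.44), DMXL1 (0.36) and CREBBP (0.34). Over the 965 well-counted genes of 8000 nt or more, the R248Q libraries also deviated upward, by 0.14 and 0.12, and a part of this deviation in these values was not tested. R248Q stood below the others in CHAC1 (0.62), and R273H in LRP2 (0.80).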

How the results depend on the processing

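In the main setting 689 genes were higher, 402 were lower and 723 differed among the mutants. With no filter beyond 1 count these numbers were 1055, 626 and 1323. The DESeq2 Wald test gave 449 and 163 against GFP. With the length trend removed 753 were lower and 1390 differed among the mutants, and with this and without GFP replicate 1 380 were higher and 2549 differed among the mutants. With the mutants as 1 arm 52 and 14 remained. At an adjusted p below 0.01 the counts were 263, 93 and 292. Leaving out single libraries gave 370 to 1881 higher, 141 to 1599 lower and 163 to 2571 differing among the mutants. The highest of these counts came without a GFP library. Such a fit holds no spread of a GFP pair, and whether this raised the counts was not tested. Without R175H replicate 2, 163 differed among the mutants, and without R248Q replicate 1 141 were lower and 371 higher. Without GFP replicate 1, 370 were higher and 221 lower. Separated genes numbered 1132 higher and 1138 lower, 86 and 55 with a distance of at least 1.2-fold, 2325 and 2475 with the length trend removed and without GFP replicate 1, and 1291 to 3515 and 1263 to 3332 without single libraries. The cause of these shifts was not tested. With a library left out, fewer libraries have to be separated.

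Same-numbered libraries share only a number in the labels. The deviations of same-numbered libraries correlated between -0.24 and 0.07 over 6 pairs of groups. With a replicate block 458 genes were higher, 213 were lower and 451 differed among the mutants. Of 116 called genes named in the text, 100 kept the call without GFP replicate 1, 97 to 104 without 1 mutant library, 104 with the block and 30 with the mutants as 1 arm. No called value among these changed direction. Values that were not called did so without single libraries: CDKN1A ranged from -0.20 to 0.080 and KRT8 from -0.10 to 0.23. Depth limits the genes with few counts, for which 3 counts are 0.307 CPM in GFP replicate 1 and 0.441 CPM in R175H replicate 1.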

Other observations

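The other 5 lists held few called members, given here as values. Their counts stand beside general shares of 5.21% called higher and 3.04% called lower over all tested genes. Of 20 tested targets of YAP and TEAD, the transcription factors of the Hippo pathway, 3 were higher and 1 lower (median 0.10, and -0.01 without GFP replicate 1). The lower member was IGFBP3. The higher ones were the angiomotin family member AMOTL1, the membrane protein CRIM1 and the phosphatase PTPN14 (log2 fold changes 0.38 ± 0.09, 0.35 ± 0.08 and 0.42 ± 0.10), and without GFP replicate 1 these 3 calls were lost (0.17, 0.26 and 0.17). The PTPN14 call was also lost without R175H replicate 1 (0.38) or R248Q replicate 1 (0.40). Of 16 Wnt antagonists and targets 1 was higher, MYC (0.17 ± 0.04), and 1 lower, SFRP4. The MYC libraries were at 454 and 476 with GFP, 556 and 545 with R175H, 498 and 488 with R248Q and 538 and 520.3 with R273H CPM, and the call was lost without R175H replicate 1, either R248Q library or either R273H library (0.16 to 0.18). In the LDL receptor family 4 of 14 were higher and 1 lower, and 2 and 1 without GFP replicate 1. LRP2, the kidney receptor megalin, was the lower member (-0.62 ± 0.14) and had overlapping libraries, with 16.7 and 23.5 with GFP, 16.5 and 12.8 with R175H, 16.8 and 15.8 with R248Q and 10.7 and 8.11 with R273H CPM, and its call was lost without GFP replicate 2 (-0.36). Of 11 NF-kB response genes 0 were higher and 1, CCL2, was lower (2 and 1 at an unadjusted p below 0.05). DESeq2 called 0 higher and 0 lower, and limma-voom 0 and 1. Of 6 tested neural or HEK293 markers 1 was lower, the tubulin TUBB3, at 214 and 214 with GFP, 167 and 163 with R175H, 182 and 179 with R248Q and 191 and 199 with R273H CPM (-0.25 ± 0.04), and 0 were higher by edgeR, DESeq2 and limma-voom or at an unadjusted p below 0.05.

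The keratin KRT8, which marks simple epithelia, had few counts and was not called against GFP (0.09 ± 0.42, adjusted p = 0.93). It had 13 and 10 with GFP, 3 and 3 with R175H, 33 and 39 with R248Q and 14 and 29 with R273H counts. The R175H libraries were below, and both R248Q libraries above, every GFP library, so the mean of the mutants lay near GFP.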
